A study of Mus musculus with 6 samples.

Results

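The 9 genes described here carry out GABA and glycine transport and metabolism: the plasma membrane transporter genes Slc6a11, Slc6a13, Slc6a9 and Slc6a5, the breakdown enzyme genes Abat, Aldh5a1 and Maob, and the GABA synthesis genes Gad1 and Gad2. They were picked by name among the 23955 genes listed for every library, with earlier results of these data known. The study used ribosome tagging in adult mice, in which a tagged ribosomal protein is switched on in one cell class and the RNA bound to tagged ribosomes is isolated. Libraries from the diencephalon (DIE, n = 3) were set against libraries from the cortical grey matter (CTX GM, n = 3). The comparison thus asks how the RNA isolated with tagged ribosomes differs between these regions. Its enrichment for astrocyte RNA was not measured here. Each library pooled material from 3 mice, and both sexes were used. All 6 libraries came from C57BL/6 mice aged 3 months with the genotype Slc1a3 +/- GFP+ Rpl22HA fl/fl, which combines the Cre allele Slc1a3tm1(cre/ERT2)Mgoe, the tagged ribosomal protein allele of the line B6N.129-Rpl22 tm1.1Psam/J and the GFP reporter Tg(CAG-cat,-EGFP)1Rbns. At 9 weeks of age both groups received tamoxifen in 3 gavage doses, each 0.4 mg for every gram of body weight and 48 hours apart. The tissue around the third ventricle was left out of the diencephalon, and meninges and white matter were taken off the cortex. Recombination was driven from the Slc1a3 locus, which encodes the glutamate transporter GLAST and is active in astrocytes and some other glia, and every animal carried 1 altered copy of that gene. Unpurified RNA from the same tissue was not analysed here, so a transcript carried over from other cells cannot be told apart from one in the tagged cells.

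GABA and glycine are the main fast inhibitory transmitters of the central nervous system, and their signals end when transporters of the SLC6 family, driven by sodium and chloride, carry them back into neurons and astrocytes. Inside the cell GABA is broken down in mitochondria, where GABA transaminase (Abat) yields succinic semialdehyde and succinic semialdehyde dehydrogenase (Aldh5a1) passes the product to the citric acid cycle. GABA is made from glutamate by glutamate decarboxylase (Gad1 and Gad2) in inhibitory neurons, and from putrescine by a route that needs monoamine oxidase B (Maob) in astrocytes. The thalamus and hypothalamus, which make up most of the diencephalon, are rich in inhibitory input.

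Libraries held 1840340 to 2078790 expected counts in the diencephalon and 1733140 to 2334240 in the cortical grey matter. Between libraries of the same region, the chi-square statistic per degree of freedom was 2.78 to 3.41 in the diencephalon and 2.59 to 6.81 in the cortical grey matter, so no pair differed only by counting noise. Cortical replicate 3 stood apart, at 5.91 and 6.81 against the other cortical libraries, which differed from each other by 2.59. The 20 astrocyte marker genes were all detected, with a summed level of 20206 to 23610 CPM (counts scaled to library size) in the diencephalon and 29038 to 36522 CPM in the cortical grey matter. Of these, 1 marker was higher, 9 were lower and 10 were neither in the diencephalon. The lower sum was led by Slc1a2, Glul and Aldoc. They averaged 8960, 2727 and 1951 CPM in the diencephalon and 16212, 6121 and 3724 CPM in the cortical grey matter. Without Slc1a2 the sum was 1.39-fold lower in the diencephalon, against 1.56-fold with it. The 12 pan-neuronal markers summed to 2637 to 2764 CPM in the diencephalon and 3356 to 4573 CPM in the cortical grey matter, so neuronal RNA was present in all 6 libraries. Of these 12, 3 were higher, 2 lower and 7 neither in the diencephalon. Without Snap25, the most abundant of them, the sum was 1.13-fold lower in the diencephalon, against 1.42-fold with it. Cortical replicate 3 had the lowest cortical astrocyte sum and the highest pan-neuronal sum. Among all genes tested, 29.6% passed edgeR's quasi-likelihood test at a Benjamini-Hochberg adjusted p under 0.05, 14.9% with higher and 14.8% with lower levels in the diencephalon.

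Of the 9 genes, 8 had enough counts to be tested. Slc6a11, Slc6a9, Abat and Gad2 were higher in the diencephalon and Slc6a13 was lower, while Aldh5a1, Maob and Gad1 did not pass the test. Thus 4 of 8 were called higher and 1 of 8 lower, beside the 14.9% and 14.8% of all genes. The median log2 difference of the 8 genes was 0.45, beside 0.01 for all genes tested. CPM values did not overlap between regions for 5 of the 8 genes, against 42.6% of all genes tested. In bulk samples of this kind, fewer cells of a type and less RNA per cell cannot be told apart. In TPM, a unit scaled for transcript length and library size that allows genes to be ranked, the order of the mean levels in the diencephalon was Slc6a11, Abat, Slc6a9, Aldh5a1, Gad2, Maob, Gad1, Slc6a13 and Slc6a5. Slc6a9 overlapped with its neighbour Aldh5a1, and Gad2 with Maob. In the cortical grey matter the order was Slc6a11, Abat, Aldh5a1, Slc6a13, Maob, Gad1, Gad2, Slc6a9 and Slc6a5, where the TPM ranges of Slc6a13 and Maob overlapped, as did those of Gad1 and Gad2 and those of Gad2 and Slc6a9.

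**Figure D1:**
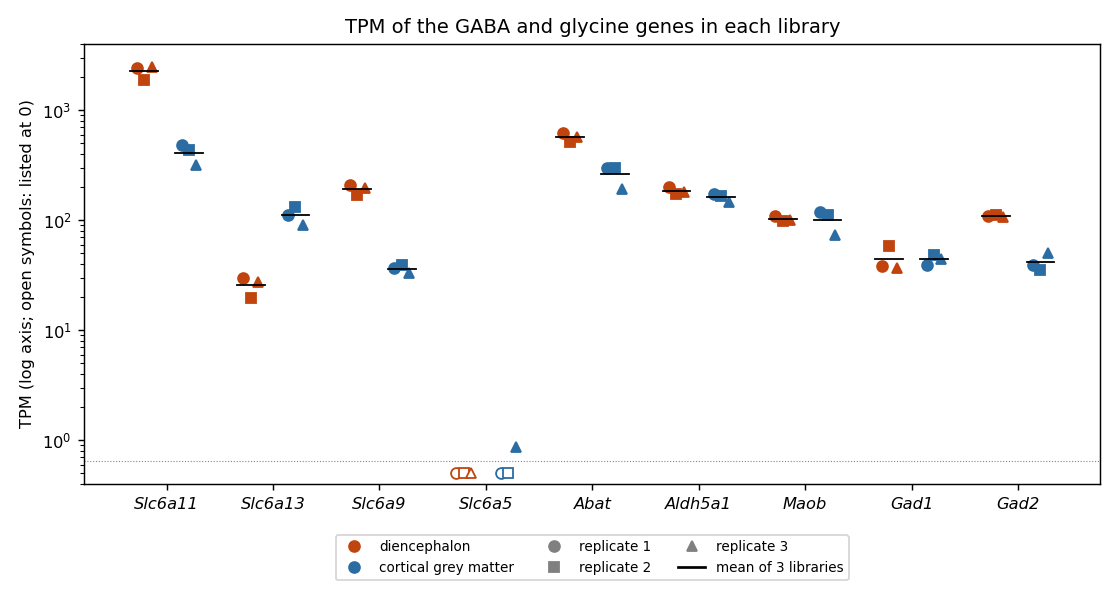
TPM of each gene on a log axis in the 3 diencephalon libraries (left of each pair) and the 3 cortical grey matter libraries (right of each pair); points are libraries, lines are means and open symbols are libraries with a value of 0. Slc6a11 lies at 1898 to 2484 TPM in the diencephalon and 316 to 482 TPM in the cortical grey matter, and Slc6a13 lies lower in the diencephalon.

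Slc6a11, which encodes the GABA transporter called GAT3 in rat and found mainly in astrocytes, was the most abundant of the 9 transcripts in both regions and was 4.79-fold higher in the diencephalon. It had 2403, 1898 and 2484 TPM in diencephalon replicates 1 to 3, against 482, 431 and 316 TPM in cortical grey matter replicates 1 to 3. All 3 diencephalon libraries lay far above the cortical ones, and cortical replicate 3 was the lowest. The means were 2262 ± 317 TPM in the diencephalon and 410 ± 85.2 TPM in the cortical grey matter (SD, n = 3 each). The log2 difference on the count scale was 2.26 ± 0.17 (SE; 95% interval 1.92 to 2.60), with an adjusted p of 1.06e-09 in edgeR's quasi-likelihood test. Since the summed astrocyte markers were lower in the diencephalon, the level of Slc6a11 was also taken as a percentage of their summed TPM. Slc6a11 then stood at 10.8, 9.64 and 13.1% in diencephalon replicates 1 to 3 and at 1.60, 1.49 and 1.31% in cortical replicates 1 to 3, a 7.59-fold difference without overlap. With Slc1a2 left out of the sum the difference was 7.36-fold, also without overlap. Glul and Aldoc, which were also lower in the diencephalon, stayed in that sum, and no share without them was computed.

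Slc6a13 encodes GAT2, a GABA and taurine transporter that in mouse brain is known chiefly from the meninges and blood vessels, and it was 4.96-fold lower in the diencephalon. Its levels were 29.8, 19.7 and 27.3 TPM in diencephalon replicates 1 to 3, against 110.7, 132.3 and 89.6 TPM in cortical replicates 1 to 3. These values rested on 35, 20 and 28 counts in the diencephalon libraries and 156, 158 and 89 counts in the cortical libraries, and the groups did not overlap. The log2 difference was -2.31 ± 0.23 (SE; 95% interval -2.78 to -1.84; edgeR adjusted p = 7.83e-08). Markers of meningeal and fibroblast cells moved the same way. Of 12 such markers 11 were tested and 10 were lower in the diencephalon, and none of the 12 was at 0 in all libraries. Their sum was 830 to 1253 CPM in the diencephalon and 4515 to 8193 CPM in the cortical grey matter. The higher sum was thus in the cortical libraries, although meninges had been taken off the cortex. Relative to the summed TPM of those markers, Slc6a13 was 0.824 ± 0.0287% in the diencephalon and 0.475 ± 0.0523% in the cortical grey matter, which is 1.74-fold higher in the diencephalon and without overlap. On expected counts in place of TPM the shares were 1.30 ± 0.0272% in the diencephalon and 1.13 ± 0.0989% in the cortical grey matter, a 1.16-fold difference, also without overlap. That direction rested on the most abundant marker, Ptgds: with Ptgds left out of the sum, Slc6a13 was 3.51 ± 0.201% in the diencephalon and 6.08 ± 0.40% in the cortical grey matter, which is 1.73-fold lower in the diencephalon and again without overlap (1.76-fold on counts). The sum of endothelial and pericyte markers was 92.3 to 128 CPM in the diencephalon and 178 to 297 CPM in the cortical grey matter. Of 12 such markers 5 were tested, and Cdh5 and Vtn were lower in the diencephalon. Vtn averaged 32.4 CPM in the diencephalon and 132 CPM in the cortical grey matter, and Cdh5 5.33 and 31.9 CPM. These genes carried most of the lower sum. Flt1, Slco1a4 and Pdgfrb did not pass the test (log2 -0.06, -0.02 and -0.43), so the list as a whole was not clearly lower. The part of meningeal and vascular RNA in the Slc6a13 difference was not tested.

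Slc6a12, which encodes a betaine and GABA transporter, is the next coding gene to Slc6a13 on chromosome 6 in RefSeq's annotation of GRCm38. Slc6a12 was low, with 11, 3 and 9 counts in the diencephalon libraries and 39, 32 and 33 counts in the cortical libraries, and it was 4.64-fold lower in the diencephalon (log2 -2.21 ± 0.38; edgeR adjusted p = 0.000107). Relative to the meningeal and fibroblast markers, its values overlapped between regions (0.178 ± 0.0649% in the diencephalon and 0.110 ± 0.0471% in the cortical grey matter), and with Ptgds left out they overlapped in TPM but not in counts.

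The ratio of Slc6a11 to Slc6a13 was 80.6, 96.5 and 90.9 in diencephalon replicates 1 to 3 and 4.35, 3.26 and 3.52 in cortical replicates 1 to 3. The groups did not overlap, which with 3 libraries against 3 gives a two-sided exact permutation p of 0.1, the smallest the design allows. Over the 22 within-library ratios computed for this gene set, of which 18 did not overlap, the Benjamini-Hochberg adjusted value of that exact p was 0.122.

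**Figure D2:**
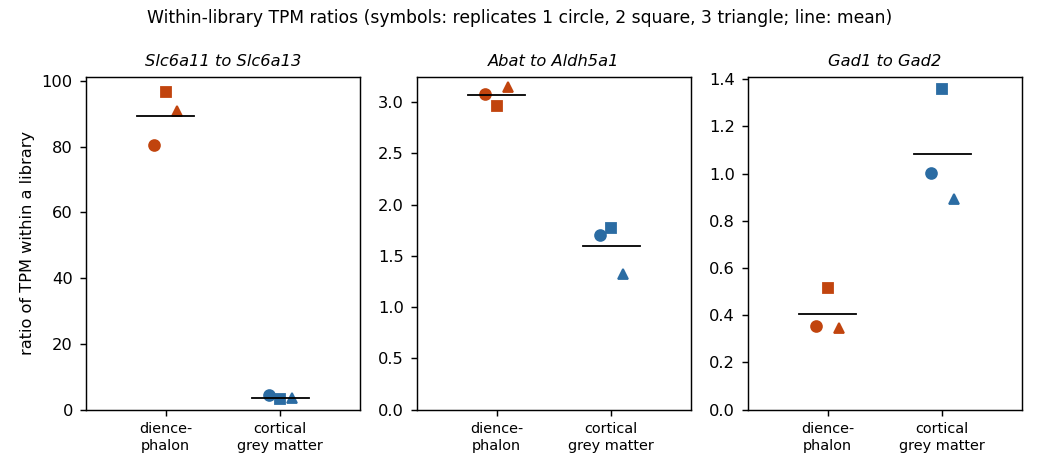
Ratios of TPM within each library (linear axes from 0) for 3 gene pairs, with the 3 diencephalon libraries left of the 3 cortical grey matter libraries; points are libraries and lines are means. Slc6a11 to Slc6a13 is 80.6 to 96.5 in the diencephalon and 3.26 to 4.35 in the cortical grey matter, and in each of the 3 panels the groups do not overlap.

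Slc6a9, which encodes the glycine transporter GlyT1, the main carrier that clears glycine into astrocytes, was 4.56-fold higher in the diencephalon. It had 208, 168 and 197 TPM in diencephalon replicates 1 to 3 and 36.6, 38.9 and 33.4 TPM in cortical replicates 1 to 3. The means were 191 ± 20.5 TPM in the diencephalon and 36.3 ± 2.79 TPM in the cortical grey matter (SD, n = 3 each), the groups were far apart, and the 3 cortical libraries lay close together. The log2 difference was 2.19 ± 0.16 (SE; 95% interval 1.87 to 2.51; edgeR adjusted p = 6.98e-10). As a share of the summed astrocyte markers, Slc6a9 was 0.943 ± 0.0911% in the diencephalon and 0.131 ± 0.00855% in the cortical grey matter. Slc1a2, Glul and Aldoc in that sum were themselves lower in the diencephalon. Of other glial lists, oligodendrocyte markers summed to 1782 to 2396 CPM in the diencephalon and 827 to 1055 CPM in the cortical grey matter. Ependymal and choroid markers summed to 128 to 159 CPM in the diencephalon and 6.21 to 36.7 CPM in the cortex. Oligodendrocyte progenitor sums were lower, at 173 to 213 and 290 to 328 CPM, and microglia sums overlapped. The part of such cells in the Slc6a11 and Slc6a9 levels was not tested. Slc6a5 encodes GlyT2, the glycine transporter of glycinergic nerve endings. It had no count in any diencephalon library, and in the cortical grey matter it had 0, 0 and 1 count in replicates 1 to 3, so it was not tested and no fold is given. The limit that a count of 0 allows (3 counts) was 1.40 to 1.58 CPM in the diencephalon libraries, for counting error only.

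The promoters of the 3 transporter genes with the largest differences among the 9 are shown so that the regulatory sequence can be read beside the levels. Each window runs from 250 bases before to 50 bases after the RefSeq transcription start on GRCm38.p6, whereas the libraries were processed on mm9. Slc6a11 lies at chr6:114130991-114131290 on the plus strand, Slc6a9 at chr4:117835008-117835307 on the plus strand and Slc6a13 at chr6:121300038-121300337 on the plus strand. Capitals mark each match to the GC box GGGCGG on either strand, and to the NFI half-site TTGGC.
Slc6a11: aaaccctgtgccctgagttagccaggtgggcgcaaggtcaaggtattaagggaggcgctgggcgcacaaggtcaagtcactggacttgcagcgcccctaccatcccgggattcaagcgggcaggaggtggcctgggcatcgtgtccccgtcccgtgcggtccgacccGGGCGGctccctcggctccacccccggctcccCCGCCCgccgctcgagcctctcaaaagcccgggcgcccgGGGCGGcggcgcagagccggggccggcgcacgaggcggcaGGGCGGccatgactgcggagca
Slc6a9: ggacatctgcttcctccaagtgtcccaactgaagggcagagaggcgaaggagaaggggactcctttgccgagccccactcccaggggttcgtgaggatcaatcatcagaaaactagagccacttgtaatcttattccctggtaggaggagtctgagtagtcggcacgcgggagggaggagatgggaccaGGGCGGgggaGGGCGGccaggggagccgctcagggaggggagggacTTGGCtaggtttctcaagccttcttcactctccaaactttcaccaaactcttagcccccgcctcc
Slc6a13: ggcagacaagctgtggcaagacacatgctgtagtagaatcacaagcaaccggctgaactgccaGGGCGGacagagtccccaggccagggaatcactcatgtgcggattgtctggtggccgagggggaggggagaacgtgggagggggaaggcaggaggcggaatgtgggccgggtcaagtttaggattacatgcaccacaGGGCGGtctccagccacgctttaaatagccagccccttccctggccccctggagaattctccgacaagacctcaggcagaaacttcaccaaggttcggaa
The Slc6a11 window held 4 GC boxes, of which 1 was on the minus strand, and 32 CG dinucleotides, with a GC content of 72.3%. Slc6a9 and Slc6a13 each had 2 GC boxes and a GC content of 59.0%, with 10 CG dinucleotides for Slc6a9 and 11 for Slc6a13. The median over 32851 mouse promoter windows of this length was 52.7% GC and 7 CG dinucleotides, and 35.7% of the windows held at least 1 GC box on either strand. Slc6a9 alone of the 3 held a TTGGC, which occurs in 46.7% of windows, and none held TATAAA, which occurs in 13.6%. The searched motifs did not overlap each other in these windows. The table lists 3 starts each for Slc6a9 and Slc6a13, and the window shown is 207 bases (Slc6a9) or 61 bases (Slc6a13) from the GENCODE start of the transcript named in the files. A match is a run of letters, not a bound site.

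Slc6a11 and Slc6a9 had nearly the same pattern over the 6 libraries. Likeness was measured among 6662 genes with a mean of at least 20 CPM, as the root mean square difference of log2 CPM after each gene was centred. For Slc6a11 the nearest genes were Sparc (0.121), Slc6a9 (0.157), Cacng5 (0.168), Ptch1 (0.179) and Spon1 (0.194). Sparc, which encodes a secreted matrix-associated protein, averaged 6605 CPM in the diencephalon and 1178 CPM in the cortical grey matter. Ptch1, the Hedgehog receptor, averaged 566 CPM in the diencephalon and 148 CPM in the cortical grey matter. For Slc6a9 the nearest were Spon1 (0.0855), A330074K22Rik (0.154), Plce1 (0.157), Slc6a11 (0.157) and Pik3c2b (0.167), all higher in the diencephalon. For Slc6a13 the nearest were Ptn (0.158), Egr1 (0.174), Aebp1 (0.186), S100a11 (0.200) and Gjb2 (0.212), all lower in the diencephalon. Ptn, a secreted growth factor, averaged 486 CPM in the diencephalon and 2369 CPM in the cortical grey matter. These values describe likeness over 6 libraries that share 2 regions and are given without a test.

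Among the breakdown enzymes, Abat was higher in the diencephalon while the next enzyme of the route, Aldh5a1, did not pass the test. Abat had 615, 514 and 569 TPM in diencephalon replicates 1 to 3, against 296, 296 and 192 TPM in cortical replicates 1 to 3. The groups did not overlap, and cortical replicate 3 was again the lowest. The difference was 1.88-fold (log2 0.91 ± 0.15 SE; 95% interval 0.59 to 1.23; edgeR adjusted p = 0.000121), and it was 0.72 on the log2 scale without cortical replicate 3. Aldh5a1 had 200, 173 and 181 TPM in diencephalon replicates 1 to 3 and 174, 167 and 145 TPM in cortical replicates 1 to 3, with overlapping ranges. Its log2 difference was -0.02 ± 0.13 (95% interval -0.28 to 0.24; edgeR adjusted p = 0.939), and the interval leaves room for a change in either direction. Its sign depended on the scaling, since the log2 difference was 0.19 on the TPM scale (limma adjusted p 0.322 to 0.367) and 0.63 when libraries were scaled on the astrocyte marker counts (edgeR adjusted p = 0.00516). The ratio of Abat to Aldh5a1, which needs no scaling between libraries, was 3.08, 2.97 and 3.15 in diencephalon replicates 1 to 3 and 1.70, 1.77 and 1.32 in cortical replicates 1 to 3. Those ranges did not overlap (exact permutation p = 0.1, the smallest possible).

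Maob, whose product oxidises monoamines and takes part in the astrocytic route from putrescine to GABA, had 108, 99.0 and 101 TPM in diencephalon replicates 1 to 3 and 119, 111 and 73.8 TPM in cortical replicates 1 to 3. All 3 diencephalon values lay inside the cortical range. The log2 difference of -0.19 ± 0.18 (95% interval -0.56 to 0.18) did not pass the test (edgeR adjusted p = 0.450). Without cortical replicate 3 it was -0.38 (edgeR adjusted p = 0.0786). When the libraries were scaled on the astrocyte marker counts it turned to 0.47 (edgeR adjusted p = 0.0465), and on the TPM scale it was 0.05. Maob lies on the X chromosome, and the pools differed in their mix of sexes: Y-linked genes summed to 153, 8.44 and 166 CPM in diencephalon replicates 1 to 3 and to 145, 149 and 0 CPM in cortical replicates 1 to 3. With the Y-linked level as a covariate the Maob difference was -0.25 (edgeR adjusted p = 0.223). Markers of monoaminergic neurons, led by Slc18a2, summed to 27.4 to 64.3 CPM in the diencephalon and 6.54 to 14.9 CPM in the cortical grey matter. Th, Ddc and Slc6a3 had 38, 17 and 45 counts over the diencephalon libraries and none in the cortical libraries, with Slc6a3 absent from diencephalon replicate 2. Hdc, of histamine neurons, had 35 counts in the diencephalon and 16 in the cortical grey matter and did not pass the test. Of the serotonergic markers on that list, Tph2 had no count in the diencephalon libraries and 3 counts in the cortical libraries. Slc6a4 had 3 counts in the diencephalon, all in replicate 3, and none in the cortical libraries. Dbh, also on the list, had no count in the diencephalon libraries and 3 counts in the cortical libraries. The part of monoaminergic neurons in the Maob level was not tested.

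Of the GABA synthesis genes, Gad2 was higher in the diencephalon and Gad1 did not pass the test. Gad2, whose product GAD65 is found mainly at nerve endings, had 108, 112 and 106 TPM in diencephalon replicates 1 to 3, against 38.8, 35.4 and 50.3 TPM in cortical replicates 1 to 3. The diencephalon libraries were close together, none overlapped with a cortical library, and cortical replicate 3 was here the highest of the cortical group. The difference was 2.29-fold (log2 1.20 ± 0.14 SE; 95% interval 0.90 to 1.50; edgeR adjusted p = 1.38e-06). Gad1, which encodes GAD67, the enzyme found throughout the cell, had 38.5, 57.7 and 36.5 TPM in diencephalon replicates 1 to 3 and 39.0, 48.1 and 44.9 TPM in cortical replicates 1 to 3. Diencephalon replicate 2 was the highest of all 6 libraries and the ranges overlapped. Its log2 difference was -0.20 ± 0.21 (95% interval -0.63 to 0.24; edgeR adjusted p = 0.519), and it was 0.45 when libraries were scaled on the astrocyte marker counts (edgeR adjusted p = 0.119). The ratio of Gad1 to Gad2 was 0.355, 0.516 and 0.344 in diencephalon replicates 1 to 3 and 1.00, 1.36 and 0.892 in cortical replicates 1 to 3, with no overlap (exact permutation p = 0.1, the smallest possible).

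Both Gad genes are defining genes of inhibitory neurons, so neuronal markers are given beside them. The lower pan-neuronal sum in the diencephalon rested mostly on Snap25, and no share without Snap25 was computed. As a share of the summed pan-neuronal markers, Gad2 was 2.84 ± 0.0270% in the diencephalon and 0.832 ± 0.0524% in the cortical grey matter, without overlap. Gad1 was 1.15 ± 0.269% in the diencephalon and 0.897 ± 0.161% in the cortical grey matter, with overlap (exact permutation p = 0.3). A list of 16 further inhibitory neuron markers summed to 140 to 177 CPM in the diencephalon and 215 to 351 CPM in the cortical grey matter. Of 8 tested, 2 were higher (Slc32a1 and Dlx1), 2 lower (Sst and Cck) and 4 neither in the diencephalon. The lower sum rested on Cck and Sst, which averaged 21.7 and 15.4 CPM in the diencephalon and 107 and 58.9 CPM in the cortical grey matter. Vip had no count in the diencephalon libraries and 25 counts over the cortical libraries. Pvalb had only 2 counts over the diencephalon libraries and none in the cortical libraries, too few to compare. The log2 ratio of the list's summed levels was -1.40 in TPM and -0.78 in CPM. Relative to the summed TPM of that list, Gad2 was 22.7 ± 3.01% in the diencephalon and 3.37 ± 0.760% in the cortical grey matter, and Gad1 was 9.01 ± 0.823% in the diencephalon and 3.63 ± 0.949% in the cortical grey matter. On expected counts in place of TPM the differences were smaller: Gad2 was 3.89-fold and Gad1 1.45-fold higher relative to the list, against 6.81-fold and 2.54-fold on TPM, each without overlap. Cck led that sum and is also made by excitatory neurons. Sst, at 136 TPM in the diencephalon and 444 TPM in the cortical grey matter, stayed in the sums below, and no share without Sst was computed. Without Cck, the share of Gad2 was 33.5 ± 5.03% in the diencephalon and 6.73 ± 1.10% in the cortical grey matter on TPM, and the groups did not overlap on TPM or on counts. The share of Gad1 without Cck was 13.3 ± 1.59% in the diencephalon and 7.14 ± 0.628% in the cortical grey matter on TPM, without overlap, but 26.1 ± 5.15% in the diencephalon and 24.7 ± 1.05% in the cortical grey matter on counts, where the groups overlapped (exact permutation p = 0.8). Slc32a1, the vesicular transporter that loads GABA and glycine, was 3.16-fold higher in the diencephalon, with 12.6, 13.2 and 9.41 CPM in diencephalon replicates 1 to 3 and 2.18, 4.26 and 4.97 CPM in cortical replicates 1 to 3 (log2 1.66 ± 0.41; edgeR adjusted p = 0.00362). A list of 6 genes drawn up for glycinergic neurons summed to 55.9 to 69.1 CPM in the diencephalon and 4.79 to 12.4 CPM in the cortical grey matter. Most of that sum was Glra1, a receptor gene of cells that receive glycine, and Slc32a1, which also serves GABA neurons. The sum is therefore no measure of glycinergic neurons. Glra1 averaged 47.9 CPM in the diencephalon and 3.18 CPM in the cortical grey matter. Slc6a5 had no count in the diencephalon libraries, Lbx1 had none in any library, and Pax2 and Pax8 had 4 counts each over the diencephalon libraries. The part of neuronal RNA in the Gad1 and Gad2 values was not tested.

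**Figure D3:**
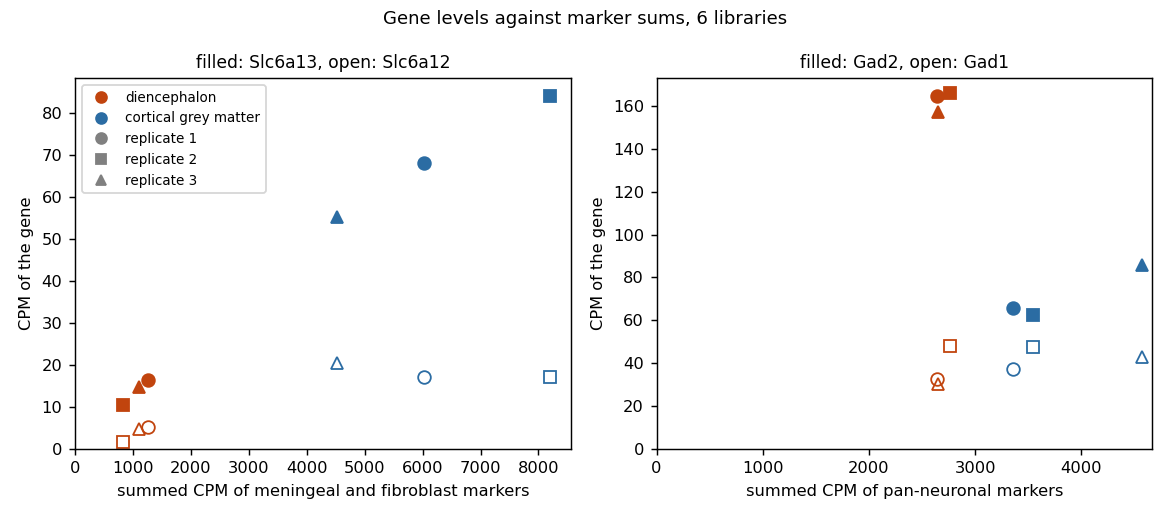
CPM of Slc6a13 and Slc6a12 (left, filled and open) against summed meningeal and fibroblast marker CPM, and of Gad2 and Gad1 (right, filled and open) against the summed CPM of pan-neuronal markers; each point is a library, in orange for the diencephalon and blue for the cortical grey matter. Slc6a13 lies at 10.5 to 16.4 CPM in the diencephalon libraries, where the meningeal sum is 830 to 1253 CPM. It lies at 55.3 to 84.1 CPM in the cortical libraries, where that sum is 4515 to 8193 CPM. Gad2 is higher in the diencephalon libraries, and their pan-neuronal sum is lower, mostly through Snap25.

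A list of 48 other genes of GABA and glycine transport and metabolism was examined in the same way, of which 36 were tested: 5 were higher and 10 lower in the diencephalon, and 21 did not pass, beside 14.9% of all genes tested called higher and 14.8% lower. Without diencephalon replicate 3, 5 of these genes were lower. Their median log2 difference was 0.00, beside 0.01 for all genes tested. Of 11 tested transport genes, 3 were higher and 2 lower in the diencephalon, beside 29.6% of all genes called in either direction. The higher ones were Slc32a1, Slc38a1 (a glutamine carrier; 277 ± 36.5 CPM in the diencephalon and 162 ± 8.39 CPM in the cortical grey matter, adjusted p = 7.91e-05) and Slc38a2 (129 ± 15.5 CPM in the diencephalon and 83.7 ± 8.42 CPM in the cortical grey matter, adjusted p = 0.00229), all by edgeR. The lower ones were Slc6a12 and Slc6a20a, a carrier of proline and other imino acids (4.50 ± 0.999 CPM in the diencephalon and 23.6 ± 9.94 CPM in the cortical grey matter; edgeR adjusted p = 3.13e-05).

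Of 14 tested genes of GABA metabolism, 1 was higher and 3 were lower in the diencephalon, a share close to the 29.6% of all genes called. Glul, the glutamine synthetase of astrocytes and 1 of the 20 astrocyte markers, averaged 2727 ± 221 CPM in the diencephalon and 6121 ± 487 CPM in the cortical grey matter, a 2.25-fold lower level (edgeR adjusted p = 2.40e-06). Got1 and Glud1, enzymes that make or use glutamate, were lower, with log2 differences of -0.44 for Got1 and -0.36 for Glud1. Aldh1a1, an aldehyde dehydrogenase that can form GABA in midbrain dopamine neurons of mice, was higher by 0.57 on the log2 scale. Maoa, next to Maob on the X chromosome, averaged 56.8 CPM in the diencephalon and 53.2 CPM in the cortical grey matter and did not pass (edgeR adjusted p = 0.805). Of 11 tested genes of glycine metabolism, 1 was higher and 5 were lower in the diencephalon, beside 14.9% and 14.8% of all genes, with a median log2 difference of -0.41. Gldc, the decarboxylase of the glycine cleavage system, averaged 21.4 ± 6.38 CPM in the diencephalon and 67.5 ± 8.40 CPM in the cortical grey matter (3.15-fold lower; edgeR adjusted p = 3.78e-06). Psat1 and Phgdh, enzymes of serine synthesis, were lower by -1.03 and -0.75 on the log2 scale, and Srr (serine racemase) and Dld (a subunit shared by the glycine cleavage system) by -0.41 and -0.44. Gatm, which uses glycine for creatine synthesis, averaged 258 ± 25.9 CPM in the diencephalon and 135 ± 13.9 CPM in the cortical grey matter (edgeR adjusted p = 1.00e-05). The calls for Got1, Glud1, Srr, Phgdh and Dld were lost on the TPM scale (limma adjusted p from 0.217 for Phgdh to 0.424 for Glud1), and with libraries scaled on astrocyte marker counts the difference turned positive for Got1, Glud1, Srr and Dld and lost its call for Psat1 (-0.40, edgeR adjusted p = 0.0637) and Phgdh (-0.094, edgeR adjusted p = 0.720). Calls near the threshold were also lost when a library was left out, with the differences still in the same direction. The call was lost for Aldh1a1 without diencephalon replicate 1 (edgeR adjusted p = 0.140) or cortical replicate 1 (0.0567), and for Got1 without diencephalon replicate 1 (0.0861) or 3 (0.146) or cortical replicate 3 (0.115). It was lost for Srr without diencephalon replicate 1 (0.0901) or 3 (0.0509) or cortical replicate 3 (0.0577), and for Dld without diencephalon replicate 2 (0.147) or 3 (0.0773) or cortical replicate 2 (0.178). Phgdh lost it without diencephalon replicate 2 (edgeR adjusted p = 0.103) or 3 (0.120) or cortical replicate 1 (0.0989) or 2 (0.103). Glud1 kept it only without cortical replicate 3, with edgeR adjusted p from 0.0914 to 0.161 when any other library was left out. With all 6 libraries, other settings lost the call for Glud1 (minimum count of 30, edgeR adjusted p = 0.0531), Dld (DESeq2 adjusted p = 0.0550) and Phgdh (limma voom adjusted p = 0.0554). With the trend of the differences with transcript length removed, Got1 (edgeR adjusted p = 0.0612) and Phgdh (0.0550) lost it.

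**Figure D4:**
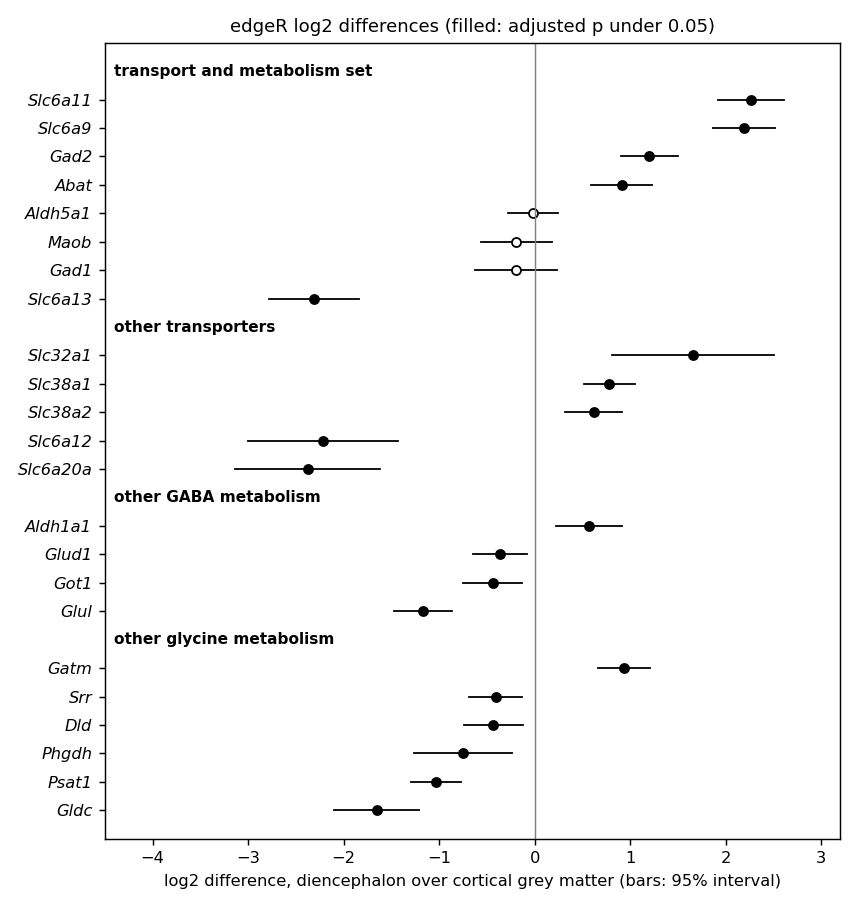
Log2 differences (diencephalon over cortical grey matter) with 95% intervals from edgeR for the 8 tested genes of the set and for the 15 other pathway genes that passed the test; filled points have an adjusted p under 0.05 and the line at 0 marks equal levels. Slc6a11 (2.26), Slc6a9 (2.19) and Slc6a13 (-2.31) lie farthest from 0 among the 8.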

How the data were processed

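Each library held RNA isolated with tagged ribosomes, sequenced on an Ion Proton per the labels' protocols. The authors deposited 1 table per library with expected counts, TPM and FPKM per gene; per the submitters' processing notes these came from RSEM on mm9. The aligner, the versions and the strand setting were not given in the sources used here; the overlapping genes Ccdc24, Gad1os and 9330162012Rik had at most 4 counts in any library. FPKM, as deposited, was not used. Expected counts were rounded (54 of 54 of the described genes' values were whole within 0.005), and genes passing edgeR's expression filter (minimum count 10) were tested: 10568 of 23955. The test was edgeR's quasi-likelihood test (edgeR 4.0.16, R 4.3.3) with TMM scaling, all 6 libraries, no covariates and Benjamini-Hochberg adjustment; the common biological coefficient of variation was 13.6%. P-values measure the spread between pools, and the labels do not say whether equal replicate numbers share mice. Ratios of TPM within libraries were compared by two-sided exact permutation tests; 13 of the ratios given were planned and 9 were added after seeing the data. Alternatives used limma 3.58.1 and DESeq2 1.42.0, with other filters, scalings and covariates. The code was tested on simulated data. Besides the 9 genes, the text names Slc32a1, up to 6 genes with the smallest adjusted p of each other pathway list, the 5 genes nearest in pattern to each of Slc6a11, Slc6a9 and Slc6a13, and the partners needed to read a result (Slc6a12, Maoa, markers). The genes and lists were chosen with earlier results of these data known. Some genes of these pathways are not reported here. Promoter sequences are RefSeq's on GRCm38.p6 and were found for 7 of the 9 genes; there was no entry for Abat and Maob.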

Additional observations from a re-analysis of the deposited data

How the results depend on the processing

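Slc6a11, Slc6a9, Slc6a13, Abat and Gad2 kept their direction and passed the test in each of the 18 alternatives, with log2 differences of 2.10 to 2.92, 2.11 to 2.84, -2.46 to -1.67, 0.72 to 1.57 and 1.10 to 1.82. With limma on TPM, which put the overall median at 0.21 to 0.24 (log2), 2118, 1991 and 1978 genes were higher and 958, 908 and 920 lower (pseudocount 1, pseudocount 0.1, and pseudocount 1 without the filter), against 1574 higher and 1559 lower by edgeR. In each of those 3, 5 other pathway genes were lower, Aldh5a1 was at 0.19 and Maob at 0.049, 0.050 and 0.049. Scaling on astrocyte marker counts put the median of all genes at 0.65, gave 5536 genes higher and 433 lower and 19 other pathway genes higher and 4 lower, and turned Aldh5a1 (0.63), Maob (0.47), Gad1 (0.45), Got1 (0.17), Glud1 (0.29), Srr (0.22) and Dld (0.21) positive. Leaving out each library in turn gave 5 (without diencephalon replicate 3) to 10 other pathway genes lower and put Aldh5a1 at -0.099 to 0.027. Same-numbered libraries did not deviate together (correlations 0.059, -0.099 and 0.004 for replicates 1 to 3), which cannot show whether they share mice. Y-linked CPM in the diencephalon and cortex was 153 and 145 in replicate 1, 8.44 and 149 in replicate 2, and 166 and 0 in replicate 3. The pools of replicates 2 and 3 thus differed in their mix of sexes between regions, and replicate 1 stays open. With a replicate block Slc6a11 was at 2.27 and 1506 genes were higher and 1531 lower. At this depth Slc6a5 had too few counts to test. The astrocyte marker counts rest largely on Slc1a2, Glul and Aldoc, each lower in the diencephalon. The cause of these shifts was not tested.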
